A study of Mus musculus with 69 samples.

Results

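Macrophages edited at Grn, the gene of progranulin, were compared with macrophages edited at the control locus Rosa26, both collected on day 4 after editing. The comparison takes 10 of the 69 libraries of the series, 5 of Grn cells and 5 of Rosa26 cells, chosen by the target and the time in their titles. The sample titles name hours as the unit of time where the design text names days, with equal figures, and days are used here. All cells came from the bone marrow of wild-type mice, and each biological replicate pooled the marrow of 6 mice. The marrow cells were grown in 50 ng/mL M-CSF, the cytokine that turns marrow progenitors into macrophages, harvested on day 7, frozen, thawed and treated with Cas9 ribonucleoprotein, the Cas9 nuclease bound to a guide RNA. The control cells carried the same nuclease with a guide to Rosa26, and no group of untreated cells was analysed here. Editing of this kind leaves a mixed population rather than a clone, and 3' tags of the message can remain after small insertions or deletions. For comparison, 5 Trem2 libraries and 19 libraries of cells edited at Atp6v1a, Npc1, Pik3c3 or Ctsd on day 4, and 5 Grn and 5 Rosa26 libraries of day 13, were used.

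Progranulin is a secreted glycoprotein that is taken up into lysosomes, partly through the receptor sortilin and partly by travelling with prosaposin, and is cut there into granulins. Macrophages and microglia, the macrophages of the brain, make much of it. Loss of progranulin causes frontotemporal dementia in carriers of a single mutated copy in humans and a lysosomal storage disease when both copies are lost, and mouse microglia without it become inflammatory with age.

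Library totals were 2358167 to 3698236 counts in Grn cells (median 2834872) and 3070409 to 3975434 counts in Rosa26 cells (median 3737589). RNA integrity numbers were 9.5 to 9.8 in the Grn libraries and 9.5 to 9.9 in the 4 Rosa26 libraries that have one. All 10 libraries were made with the protocol labelled Regular. Levels are CPM, counts scaled to the library total, and the assay reads only the 3' end of each message. The summed level of 8 macrophage markers was 9778 to 14076 CPM in Grn cells and 11884 to 14071 CPM in Rosa26 cells, with all 8 detected in every library. The highest Grn value was that of replicate 1, and the remaining Grn values, 9778 to 10264 CPM, lay below every Rosa26 library. Most of the sum was Lyz2, at means of 8112 CPM in Grn cells and 8868 CPM in Rosa26 cells. Of the 8, Csf1r, Adgre1, Cd14, Fcgr1 and Cd68 were called lower in Grn cells, as described below. Along the first principal component of the 10 libraries, which held 26.4% of the variance, all 5 Grn libraries lay on the opposite side from all 5 Rosa26 libraries.

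The targeted message fell. Grn (ENSMUSG00000034708.13) stood at 727, 638, 717, 968 and 1156 CPM in Grn cells, against 3310, 4227, 4273, 4409 and 3991 CPM in Rosa26 cells. The groups did not overlap. The means were 841 ± 215 CPM in Grn cells and 4042 ± 436 CPM in Rosa26 cells (SD, n = 5 each), a log2 fold change of -2.26 ± 0.15 (SE) with an adjusted p of 1.44e-19 by the quasi-likelihood test of edgeR, adjusted by the Benjamini-Hochberg method, which gives all adjusted p-values below. In the other groups of day 4 Grn averaged between 3386 CPM (Ctsd cells) and 4399 CPM (Npc1 cells). In these bulk samples, fewer cells that make a message and less of it per cell cannot be told apart.

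Of 12008 genes tested, 966 (8.04%) passed an adjusted p of 0.05 between Grn and Rosa26 cells, 534 higher in Grn cells (4.45%) and 432 lower (3.6%). By limma-trend on the deposited log2 CPM the balance was the other way, with 415 higher and 613 lower. The median log2 change over all tested genes was 0.002. Changes over 2-fold were found for 253 of the called genes (2.11% of those tested), with 215 higher and 38 lower in Grn cells. The 5 Grn values lay wholly above the 5 Rosa26 values for 432 of all tested genes (3.6%) and wholly below them for 324 (2.7%), and 533 of the 966 called genes were among these. The count of calls depended on single libraries and was 615 without Grn replicate 3, and it was 300 (137 higher, 163 lower) in a fit without the protocol term.

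**Figure D1:**
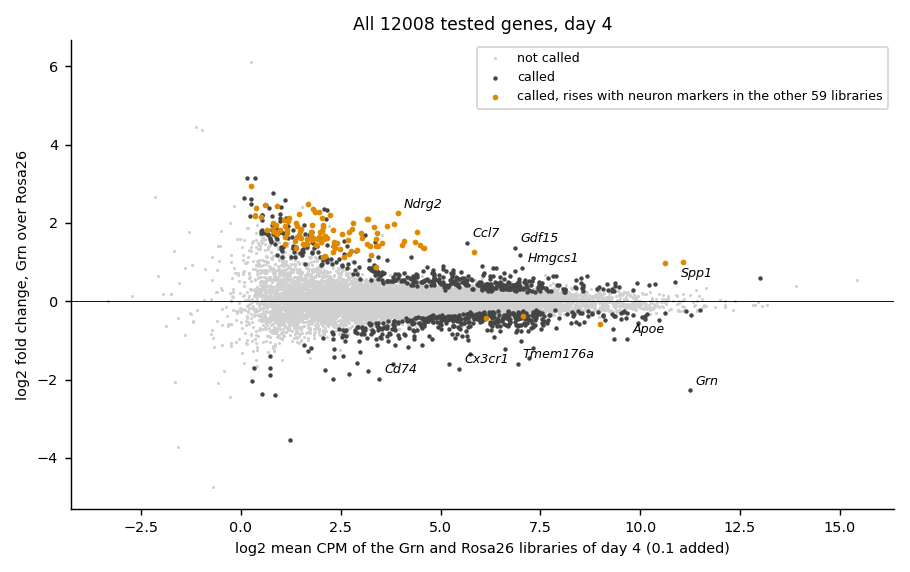
Log2 fold change of Grn over Rosa26 cells on day 4 (vertical axis) against the log2 mean CPM of the 10 libraries with 0.1 added (horizontal axis), 1 point per tested gene. Dark and orange points are the 966 called genes, and orange marks those whose level rises with that of neuron markers in the other 59 libraries, most of them among the larger rises. Grn is the lower called gene of high level at -2.26.

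The larger rises included many messages of brain tissue. Among genes of at least 10 CPM in 1 group and with no overlap between groups, the 12 largest rises, with log2 changes between 1.61 and 2.24, included Ndrg2, Gpm6a, Nrgn, Fbxl16, Gpm6b, Kif5a, Sparcl1, Snap25, Celf4, Saa3 and Ttr. Most of these are known from neurons or astrocytes, for example Snap25, a protein of synaptic vesicle fusion, and Nrgn, a calmodulin-binding protein of dendrites. Snap25 stood at 23.3, 9.05, 16.7, 19.6 and 12.7 CPM in Grn cells, against 8.03, 3.74, 2.88, 3.26 and 5.98 CPM in Rosa26 cells, a change of 1.75 ± 0.29 (adjusted p = 2.7e-05). All 5 Grn values were above the Rosa26 values.

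The summed level of 15 neuron markers was 153, 66.0, 104, 118 and 103 CPM in Grn cells, against 55.2, 25.1, 31.3, 26.5 and 42.6 CPM in Rosa26 cells. Each Grn library was above each Rosa26 library. Of the 14 neuron markers tested, 10 were called higher and none lower, and the count of higher calls was 7 without Grn replicate 1 or without Rosa26 replicate 4. Astrocyte markers summed to 123 to 174 CPM in Grn cells and 48.4 to 77.9 CPM in Rosa26 cells, with 4 of 8 called higher. Oligodendrocyte markers summed to 151 to 204 CPM in Grn cells and 124 to 133 CPM in Rosa26 cells, with 2 of 4 tested called higher, among them Mobp, a protein of myelin. Erythroid markers summed to 6.92 to 23.6 CPM in Grn cells and 1.00 to 4.32 CPM in Rosa26 cells, and the 3 tested, the globin genes Hbb-bs (2.37 ± 0.46), Hba-a2 (2.35 ± 0.48) and Hbb-bt (3.14 ± 0.63), were all called higher. Counts of single globin copies are uncertain because the copies share sequence.

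None of the brain markers was at 0 in all libraries of either group, while 1 of 6 erythroid markers was at 0 in every Grn library and 2 of 6 in every Rosa26 library. Stromal markers, with Sparc (1.70 ± 0.57, adjusted p = 0.0501) among them, summed to 14.8 to 27.4 CPM in Grn cells and 4.20 to 13.9 CPM in Rosa26 cells, with none of 3 tested called. Endothelial markers summed to 9.24 to 14.2 CPM in Grn cells and 4.71 to 7.64 CPM in Rosa26 cells, with 0 of 1 called. Neutrophil markers summed to 13.2 to 30.9 CPM in Grn cells and 21.2 to 35.1 CPM in Rosa26 cells, with 0 of 4 tested called. Monocyte markers summed to 15.4 to 30.9 CPM in Grn cells and 29.2 to 44.8 CPM in Rosa26 cells. The 1 tested, Ccr2, was called lower, also in each of the 10 fits that left out 1 library. With the neuron marker level as a covariate, Ccr2 was at -0.70 and not called. Its level in Grn replicate 1, 30.0 CPM, lay within the Rosa26 range of 28.3 to 40.1 CPM. Megakaryocyte (0 of 3) and mast cell (0 of 1) markers had no call, and lymphocyte and dendritic cell markers were too low to test, at up to 2.44 and 4.57 CPM in sum in Grn cells, against up to 2.32 and 4.46 CPM in Rosa26 cells.

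**Figure D2:**
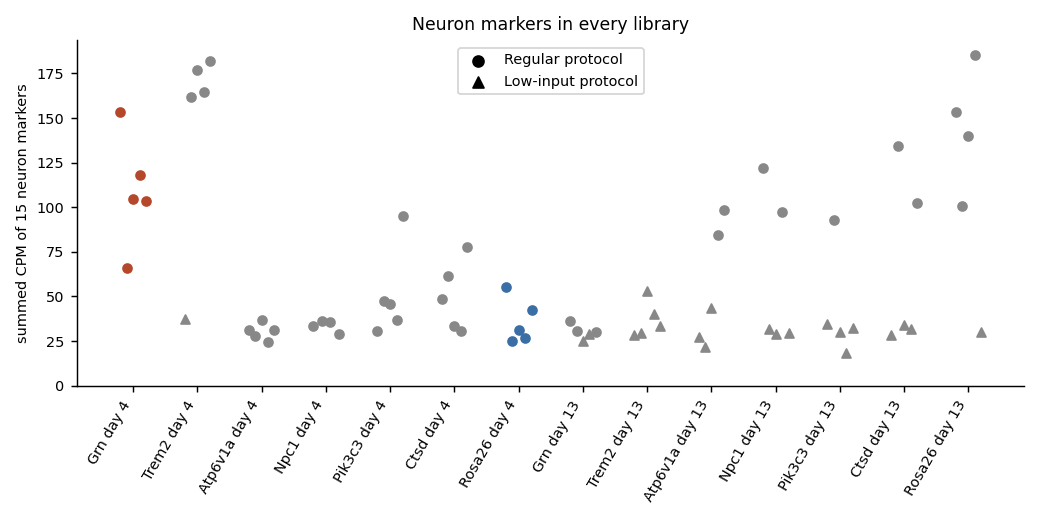
Summed CPM of 15 neuron markers (vertical axis) in every library of the series, by group (horizontal axis), with Grn cells of day 4 in red and Rosa26 cells of day 4 in blue, and circles for Regular and triangles for Low-input libraries. The 5 Grn libraries of day 4 lie between 66.0 and 153 CPM and the 5 Rosa26 libraries of day 4 between 25.1 and 55.2 CPM, while on day 13 Grn libraries lie below most Rosa26 libraries.

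The same messages were not particular to Grn editing. The neuron markers were at 162 to 182 CPM in the 4 Regular Trem2 libraries of day 4 and at 37.6 CPM in the Low-input one, 24.4 to 95.0 CPM over the other 4 targeted groups of that day, and, on day 13, 25.3 to 36.2 CPM in Grn cells and 30.3 to 185 CPM in Rosa26 cells, where the lowest value of either group was again of a Low-input library. In the 59 libraries outside the comparison, 173 of the 12008 genes (1.44%) rose with the neuron marker level. These made up 104 of the 534 genes called higher in Grn cells (19.5%) and 102 of the 215 called higher by over 2-fold (47.4%). They made up 3 of the 432 called lower (0.694%) and none of the 38 called lower by over 2-fold. The other called genes need not be free of these messages. Of the 10 neuron markers called higher, 3 were not among the 173, and neither were 2 of the 3 globin genes. In a fit that also held the neuron marker level, 757 genes were called (385 higher, 372 lower), of which 491 were among the 966 in the same direction. This measure was added after the data were seen. In a fit that held the brain marker level instead, 1441 genes were called, and 612 of the 966 were among them in the same direction, 282 of the 534 higher and 330 of the 432 lower.

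The genes of cholesterol synthesis and uptake, which the factor SREBP2 switches on when sterols in the endoplasmic reticulum are low, were among the lists with the most calls. Of 24 tested, 11 rose in Grn cells and none fell (45.8%, against 8.04% of all genes), with a median log2 change of 0.46. Without Grn replicate 2 or without Grn replicate 3, the count was 7. With the neuron marker level as a covariate, 10 rose and none fell, and none of the 24 rose with that level elsewhere.

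To show where the sterol genes that rose begin, the promoters of 3 of them are given from RefSeq (GRCm38.p6, 250 bases before to 50 after the start of the gene, in the direction of the gene). Capitals mark each CCAAT or its reverse complement ATTGG, the box bound by the factor NF-Y, which acts beside SREBP on many sterol genes, and TCACNCCAC, a form of the sterol regulatory element, searched on both strands. The motifs did not overlap.
Hmgcs1 (chr13:119690101-119690400, plus strand): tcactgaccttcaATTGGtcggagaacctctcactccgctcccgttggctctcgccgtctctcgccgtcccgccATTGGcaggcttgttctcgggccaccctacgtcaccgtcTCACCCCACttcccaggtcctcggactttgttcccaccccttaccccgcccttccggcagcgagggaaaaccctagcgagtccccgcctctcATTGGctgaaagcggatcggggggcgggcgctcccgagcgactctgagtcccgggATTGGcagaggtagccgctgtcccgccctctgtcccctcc
Msmo1 (chr8:64733529-64733828, minus strand): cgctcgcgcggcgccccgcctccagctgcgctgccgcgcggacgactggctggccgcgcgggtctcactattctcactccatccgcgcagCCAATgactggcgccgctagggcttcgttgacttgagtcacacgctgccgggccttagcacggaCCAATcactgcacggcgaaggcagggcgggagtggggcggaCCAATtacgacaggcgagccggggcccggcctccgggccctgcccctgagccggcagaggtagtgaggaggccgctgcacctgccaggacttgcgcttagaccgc
Insig1 (chr5:28071162-28071461, plus strand): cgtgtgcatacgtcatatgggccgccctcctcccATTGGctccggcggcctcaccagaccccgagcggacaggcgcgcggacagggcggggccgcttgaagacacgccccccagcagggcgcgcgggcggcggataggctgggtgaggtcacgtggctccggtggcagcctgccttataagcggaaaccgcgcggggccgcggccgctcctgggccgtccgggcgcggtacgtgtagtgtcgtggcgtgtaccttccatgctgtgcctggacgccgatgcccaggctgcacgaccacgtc
Among the 17 sterol genes of 25 with a promoter in the table, 16 had a CCAAT box, against 41.1% of 27025 genes with a promoter, and 1, Hmgcs1, had TCACNCCAC, against 1.44%. A gene counted once if any of its promoters held the motif. The 17 include sterol genes that rose and others that were not called, so the count does not set them apart. Acat2, which rose, had neither motif, while Mvk and Mvd, which were not called, had a CCAAT box. These matches describe letters in the window, not binding.

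Hmgcs1, which makes the hydroxymethylglutaryl-CoA at the start of the pathway, stood at 132, 188, 188, 176 and 160 CPM in Grn cells, against 94.8, 102, 87.2, 97.3 and 85.0 CPM in Rosa26 cells (0.86 ± 0.10, adjusted p = 2.43e-09). All 5 Grn values were above all Rosa26 values. Msmo1, a sterol demethylase, stood at 184, 236, 225, 168 and 144 CPM in Grn cells, against 129, 135, 129, 131 and 107 CPM in Rosa26 cells (0.60 ± 0.13, adjusted p = 0.000819), without overlap.

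Insig1, which holds the SREBP escort in the endoplasmic reticulum, rose by 0.89 ± 0.17 and Hsd17b7, a sterol reductase, by 0.73 ± 0.15. Sqle, the squalene epoxidase, rose by 0.66 ± 0.13 and Sc5d, a sterol desaturase, by 0.55 ± 0.10. These 6 genes were called in each of the 10 fits that left out 1 library. Stard4, a sterol carrier (0.53), Acat2, the cytosolic thiolase (0.52), Fdps, the farnesyl diphosphate synthase (0.50), and Cyp51, the lanosterol demethylase (0.47), rose too, but lost the call in 5, 6, 6 and 3 of these fits, each of them without Grn replicate 2 and without Grn replicate 3. The message of SREBP2 itself, Srebf2, changed by -0.02 (adjusted p = 0.964).

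The targets of LXR, the nuclear receptor that answers to excess sterol and drives its export, divided. Of 12 tested, 3 rose and 4 fell (58.3% called), with a median of -0.10. The 4 that fell carry lipid out of cells or between lipoproteins. Apoe, the apolipoprotein, stood at 681, 296, 398, 604 and 783 CPM in Grn cells, against 1049, 910, 1213, 1184 and 1008 CPM in Rosa26 cells (-0.96 ± 0.16, adjusted p = 4.74e-05). Pltp, the phospholipid transfer protein, stood at 440, 352, 354, 486 and 560 CPM in Grn cells, against 844, 839, 784, 895 and 905 CPM in Rosa26 cells (-0.96 ± 0.11, adjusted p = 2.43e-09). Neither overlapped between groups.

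The sterol exporters Abca1 (-0.56 ± 0.17) and Abcg1 (-0.45 ± 0.13) fell as well, and lost the call in 5 and 4 of the 10 fits that left out 1 library, in both cases without Rosa26 replicate 5 and without Grn replicates 1, 2 or 3. The 3 that rose were the stearoyl-CoA desaturases Scd1 (1.54) and Scd2 (1.37), both of which rose with the neuron marker level in the other libraries, and Smpdl3a (0.27), a phosphodiesterase that lost the call in 7 of the 10 fits. The count of rises was 1 without Rosa26 replicate 2 or 5, and 2 in most other fits. Of 12 genes of fatty acid synthesis, 3 rose and none fell (25% called, against 8.04% of all genes). The 3 were Scd1, Scd2 and Me1, the malic enzyme, which lost the call in 5 of the 10 fits.

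Among 17 subunits of the V-ATPase, the proton pump that acidifies lysosomes, 5 rose and none fell (29.4%, median 0.14). Atp6v1h, a regulatory subunit of the cytosolic part, stood at 202, 230, 216, 175 and 189 CPM in Grn cells, against 129, 159, 153, 159 and 147 CPM in Rosa26 cells (0.44 ± 0.09, adjusted p = 0.000511), without overlap, and kept its call in every fit that left out 1 library. The other 4, also of the cytosolic part, were Atp6v1g1 (0.36), Atp6v1d (0.35), Atp6v1c1 (0.25) and Atp6v1e1 (0.25). They lost the call in 1, 9, 5 and 7 of the 10 fits, so that the count was 1 without Grn replicate 1, 2 without Rosa26 replicate 3 or 5, and 3 or 4 in the rest.

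Few lysosomal hydrolases were called. Of 40 tested, 3 rose, 2 fell and 35 were not called (12.5% called, near the 8.04% of all genes, median -0.12). Fuca2, a fucosidase, stood at 69.4, 89.4, 93.5, 85.7 and 80.5 CPM in Grn cells, against 55.6, 47.6, 50.0, 51.4 and 51.5 CPM in Rosa26 cells (0.71 ± 0.10, adjusted p = 7.14e-07), without overlap. Gla, the galactosidase A, rose by 0.42 ± 0.09, and Neu1, a sialidase, by 0.31 ± 0.09. Ctsc, the dipeptidyl peptidase cathepsin C, stood at 217, 163, 153, 183 and 188 CPM in Grn cells, against 294, 326, 287, 283 and 270 CPM in Rosa26 cells (-0.69 ± 0.13, adjusted p = 0.00024), and all Grn values were lower. Pla2g15, a lysosomal phospholipase, fell by 0.33. Neu1 lost the call without Rosa26 replicate 1 or Grn replicate 2 or 3, and Pla2g15 without Rosa26 replicate 2 or Grn replicate 2, 3 or 4, and the count of falls was 5 without Grn replicate 5. Of 23 genes of the lysosomal membrane and sorting none rose and 2 fell (8.7%, near the 8.04% of all genes). These 2 were not called without Grn replicate 2 or without Grn replicate 3.

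The list of progranulin, its partners and genes of lysosomal traffic gave few calls. Of 16 tested, 2 fell and none rose (12.5%, against 8.04% of all genes). That share includes Grn itself, the edited gene. The only call beyond the target was Bmp2, a secreted growth factor (-0.83 ± 0.19). Psap, the prosaposin that carries progranulin to lysosomes, averaged 4779 ± 744 CPM in Grn cells and 5554 ± 564 CPM in Rosa26 cells (-0.22 ± 0.10, adjusted p = 0.213). Sort1, the sortilin receptor, changed by -0.21 ± 0.17 (adjusted p = 0.517) and Tmem106b, a lysosomal membrane protein that modifies the risk of frontotemporal dementia in humans, by 0.04 ± 0.09 (adjusted p = 0.859). Ctsd, the protease cathepsin D, averaged 4153 ± 384 CPM in Grn cells and 4041 ± 150 CPM in Rosa26 cells (0.04 ± 0.07, adjusted p = 0.81). Gpnmb, a glycoprotein of stressed lysosomes, averaged 2543 ± 284 CPM in Grn cells and 2556 ± 345 CPM in Rosa26 cells (-0.01 ± 0.10, adjusted p = 0.979).

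**Figure D3:**
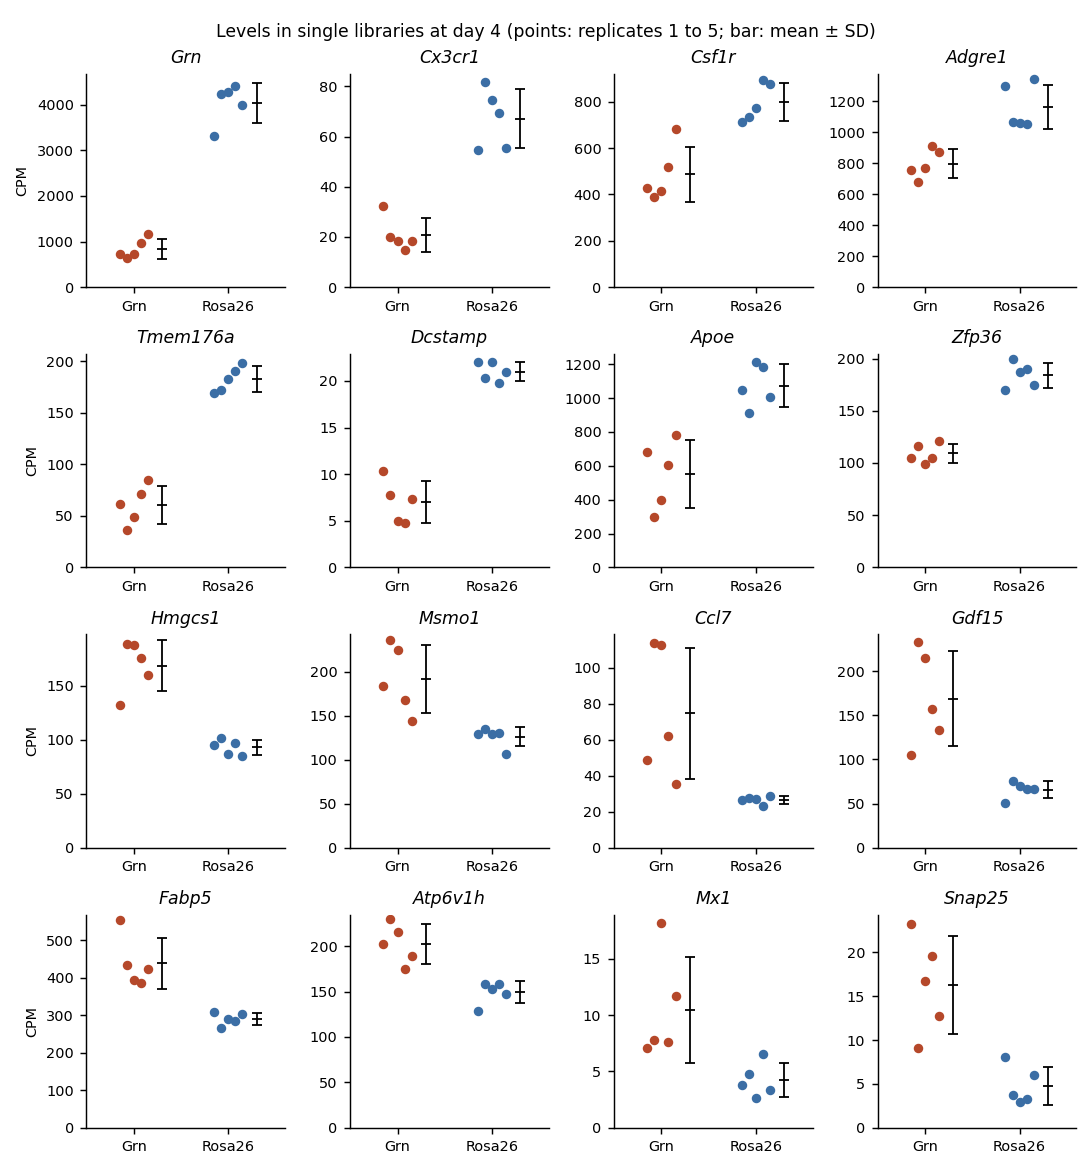
CPM of 16 named genes in each of the 5 Grn and 5 Rosa26 libraries of day 4, 1 panel per gene with its own axis, with a bar at the mean of each group. The Grn, Cx3cr1, Tmem176a and Apoe values of Grn cells lie below those of Rosa26 cells, and the Hmgcs1, Gdf15, Fabp5 and Atp6v1h values above them.

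Genes of macrophage identity fell more often than they rose. Of 20 tested, 2 rose and 9 fell (55%, median -0.24), or 1 and 6 without Rosa26 replicate 5, without Grn replicate 2, without Grn replicate 3 or with the neuron marker level as a covariate. Cx3cr1, the fractalkine receptor, stood at 32.2, 20.0, 18.5, 14.9 and 18.4 CPM in Grn cells, against 54.7, 81.5, 74.4, 69.2 and 55.4 CPM in Rosa26 cells (-1.72 ± 0.24, adjusted p = 5.79e-07). Csf1r, the receptor for M-CSF, stood at 427, 389, 415, 519 and 682 CPM in Grn cells, against 712, 735, 774, 893 and 877 CPM in Rosa26 cells (-0.71 ± 0.15, adjusted p = 0.000648). Adgre1, the F4/80 antigen, stood at 758, 676, 771, 908 and 871 CPM in Grn cells, against 1297, 1067, 1061, 1053 and 1341 CPM in Rosa26 cells (-0.55 ± 0.10, adjusted p = 8.4e-05). None of the 3 overlapped between groups.

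Cebpb, a transcription factor (-0.53), Aif1, an actin-bundling protein (-0.51), and Sirpa, the receptor for the signal CD47 (-0.37), fell in every fit that left out 1 library. Cd14, the lipopolysaccharide co-receptor (-0.55), Fcgr1, a high-affinity Fc receptor (-0.46), and Cd68, a lysosomal glycoprotein (-0.27), fell too, but lost the call in 4, 6 and 5 of these fits, each of them without Grn replicate 2, without Grn replicate 3 and without Rosa26 replicate 5. The 2 that rose were scavenger and mannose receptors. Msr1 stood at 239, 319, 276, 196 and 209 CPM in Grn cells, against 142, 189, 175, 160 and 146 CPM in Rosa26 cells (0.61 ± 0.11, adjusted p = 0.000165), without overlap. Mrc1 rose by 0.42 ± 0.13 and lost the call in 5 of the 10 fits, among them those without Grn replicate 2, 3 or 4 and Rosa26 replicate 1 or 5.

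The largest falls by the same rule as for the rises were Grn, Cd74, Adgre4, Cx3cr1, Tmem176a, Dcstamp, Nr4a1, Tmem176b, Rn7sk, Plxdc2, Itgax and Egr2, from -2.26 to -1.11. Tmem176a, an intracellular cation channel protein of antigen-presenting cells, stood at 61.8, 36.4, 48.7, 71.1 and 84.8 CPM in Grn cells, against 169, 173, 183, 191 and 199 CPM in Rosa26 cells (-1.59 ± 0.14, adjusted p = 3.24e-13). Its neighbour and partner Tmem176b averaged 79.3 ± 29.6 CPM in Grn cells and 217 ± 30.1 CPM in Rosa26 cells (-1.46 ± 0.15). Adgre4, a relative of F4/80, averaged 2.74 ± 1.63 CPM in Grn cells and 10.1 ± 1.53 CPM in Rosa26 cells (-1.85 ± 0.33), and Plxdc2, a membrane protein with a plexin domain, 11.2 ± 4.01 CPM in Grn cells and 24.7 ± 3.56 CPM in Rosa26 cells (-1.16 ± 0.23). Counts assigned to Rn7sk, the noncoding RNA that holds back transcription elongation, fell by 1.35 on the log2 scale. Whether these 3' counts follow the level of that RNA was not tested. Of 10 genes of alternative activation, Mgl2, a lectin (1.43), and Mrc1 rose and Igf1, a growth factor, fell (-0.41). That made 30% called, against 8.04% of all genes. Of 13 genes of efferocytosis, the uptake of dying cells, 1 rose, the lipid receptor Cd300lf (1.47), and none fell. That share of 7.69% was near the 8.04% of all genes. In the list of 8 Ms4a and Tmem176 genes, the pair fell and Ms4a6d rose (0.50), with 37.5% called.

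Some chemokines rose and some chemokine receptors fell. Of 15 chemokines, 4 rose and 2 fell (40% called, against 8.04% of all genes, median 0.23). Ccl7, which draws monocytes, stood at 48.8, 114, 113, 61.7 and 35.5 CPM in Grn cells, against 26.5, 27.8, 26.7, 23.1 and 28.5 CPM in Rosa26 cells (1.5 ± 0.30, adjusted p = 0.000398). Its relative Ccl2 stood at 132, 269, 281, 141 and 62.6 CPM in Grn cells, against 81.2, 89.0, 74.4, 71.7 and 75.4 CPM in Rosa26 cells (1.18 ± 0.28, adjusted p = 0.00443). The spread among Grn libraries was wide for both, with replicates 2 and 3 high and replicate 5 low, and for Ccl2 replicate 5 was below every Rosa26 library. Ccl4 averaged 110 ± 7.86 CPM in Grn cells and 71 ± 7.58 CPM in Rosa26 cells (0.63 ± 0.17), and Cxcl16, a membrane-bound chemokine, 119 ± 26.2 CPM in Grn cells and 191 ± 23.3 CPM in Rosa26 cells (-0.69 ± 0.11). Of 11 chemokine receptors, Cx3cr1 and Ccr2, the receptor for Ccl2 and Ccl7 (-0.89 ± 0.20), fell and none rose (18.2% called). Ccr2 was not called with the neuron marker level as a covariate.

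Messages of MHC class II, which presents peptides to T cells, were at low levels, and some fell. Of 8 genes tested, 3 fell, none rose and 5 were not called (37.5% called, median -1.17). Cd74, the invariant chain, stood at 2.69, 1.86, 3.91, 4.72 and 8.13 CPM in Grn cells, against 18.4, 12.8, 17.8, 17.3 and 20.6 CPM in Rosa26 cells (-1.98 ± 0.32, adjusted p = 1.81e-05). H2-Ab1 (-1.98 ± 0.41) and H2-Aa (-1.74 ± 0.46), the chains of the class II molecule, averaged 1.84 ± 1.57 and 1.98 ± 1.30 CPM in Grn cells and 7.93 ± 2.11 and 6.38 ± 2.16 CPM in Rosa26 cells. Without Grn replicate 2, H2-Aa had an adjusted p of 0.0527. Of 11 class I genes, 1 fell and none rose (9.09%, near the 8.04% of all genes).

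Of 11 complement genes, 6 fell and none rose (54.5%, median -0.24), or 3 without Rosa26 replicate 5, Grn replicate 2 or Grn replicate 3. C1qb, a chain of the C1q molecule that tags debris and synapses, stood at 697, 535, 461, 600 and 791 CPM in Grn cells, against 769, 872, 796, 892 and 872 CPM in Rosa26 cells (-0.45 ± 0.10, adjusted p = 0.00138), with Grn replicate 5 within the Rosa26 range. Its partner chains C1qa and C1qc fell by 0.59 and 0.37 on the log2 scale, C1qa being 1 of the 3 lower genes that rise with the neuron marker level elsewhere, and C1qc losing the call without Rosa26 replicate 5, Grn replicate 2 or Grn replicate 3. C3ar1, the receptor for the C3a peptide, fell by 0.31 with no overlap. Of 14 Toll-like receptors and their helpers, 4 fell and none rose (28.6% called, against 8.04% of all genes). Unc93b1, the carrier of the endosomal receptors, was among those that fell (-0.56 ± 0.12). The count of falls was 1 without Rosa26 replicate 1, Grn replicate 2 or Grn replicate 3. It was 2 without Rosa26 replicate 2 or Grn replicate 4.

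Interferon-stimulated genes rose in part and with wide spread. Of 34 tested, 6 rose and none fell (17.6%, median 0.35), and between 4 and 8 rose when 1 library was left out. The count was 4 without Rosa26 replicate 2 or 3 or Grn replicate 3 or 4. Mx1, an antiviral GTPase, stood at 7.03, 7.76, 18.1, 7.63 and 11.7 CPM in Grn cells, against 3.76, 4.81, 2.62, 6.52 and 3.32 CPM in Rosa26 cells (1.29 ± 0.30, adjusted p = 0.00241), without overlap but close at the edges. Ifit2, a binder of viral RNA, stood at 17.0, 18.1, 45.1, 50.1 and 38.0 CPM in Grn cells, against 5.97, 10.4, 12, 19.8 and 16.9 CPM in Rosa26 cells (1.36 ± 0.36, adjusted p = 0.00987), where Grn replicates 1 and 2 lay within the Rosa26 range. Ifi205 (1.5) shares sequence with close relatives, and its count is uncertain. Of 14 NF-kB targets, 1 rose and 2 fell (21.4% called, against 8.04% of all genes). The rise was Saa3, an acute-phase protein (1.68 ± 0.32). The falls were Nfkbiz and Relb, a nuclear cofactor and a subunit of NF-kB (-0.66 and -0.53). Nfkbiz lost the call without Grn replicate 2 and Relb without Rosa26 replicate 4. Saa3 was 32.3 CPM in Grn replicate 5 and 5.69 to 12.3 CPM in the other Grn libraries.

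Immediate early genes, which cells transcribe within minutes of a signal, fell in part. Of 18 tested, 7 fell, none rose and 11 were not called (38.9% called, median -0.35), and 5 to 7 fell when 1 library was left out. Zfp36, which speeds the decay of cytokine messages, stood at 105, 117, 99.2, 105 and 121 CPM in Grn cells, against 170, 199, 187, 190 and 175 CPM in Rosa26 cells (-0.75 ± 0.14, adjusted p = 0.000174). Nr4a1, a nuclear receptor, stood at 3.13, 3.46, 3.55, 5.45 and 2.98 CPM in Grn cells, against 16.4, 8.02, 11.3, 9.03 and 11.0 CPM in Rosa26 cells (-1.58 ± 0.29, adjusted p = 0.000148). Neither overlapped. Egr2 (-1.11), Fos (-0.88), Junb (-0.42), Ier2 (-0.67) and Jund (-0.33) completed the 7, the last pair losing the call in 5 fits each, in both cases without Rosa26 replicate 1 or 5 or Grn replicate 2.

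Genes of lipid-associated macrophages, the state of macrophages laden with lipid, moved in either direction. Of 21 tested, 3 rose and 3 fell (28.6%, median 0.00). Fabp5, a fatty acid carrier, stood at 553, 434, 393, 385 and 423 CPM in Grn cells, against 308, 265, 290, 283 and 303 CPM in Rosa26 cells (0.59 ± 0.14, adjusted p = 0.00362), and Spp1, osteopontin, at 2136, 2609, 2438, 2093 and 1759 CPM in Grn cells, against 1408, 1736, 1718, 1504 and 1516 CPM in Rosa26 cells (0.49 ± 0.09, adjusted p = 0.000148). Every Grn value of both was above every Rosa26 value. Lilrb4a, an inhibitory receptor, rose by 0.49 but lost the call without Rosa26 replicate 3 or Grn replicate 2. Itgax, the integrin CD11c, averaged 6.61 ± 1.20 CPM in Grn cells and 14.3 ± 0.675 CPM in Rosa26 cells (-1.12 ± 0.22), and with Apoe and Clec7a, the glucan receptor (-0.61), made up those that fell. Clec7a lost the call without Rosa26 replicate 4, Grn replicate 2 or Grn replicate 3. Dcstamp, which macrophages need to fuse, averaged 7.01 ± 2.28 CPM in Grn cells and 21.0 ± 0.985 CPM in Rosa26 cells (-1.59 ± 0.23).

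Among genes of stress and metabolism, 4 of 18 genes of the unfolded protein response rose and none fell (22.2%, median 0.16), or 2 without Grn replicate 3. Hspa5, the main chaperone of the endoplasmic reticulum, stood at 1581, 1736, 1618, 1342 and 1321 CPM in Grn cells, against 1093, 1211, 1137, 1098 and 1074 CPM in Rosa26 cells (0.44 ± 0.08, adjusted p = 0.000172), without overlap, and Pdia6, a disulphide isomerase, rose by 0.46. Of 22 genes of glycolysis and hypoxia, 5 rose and none fell (22.7%, median 0.04), or 3 without Rosa26 replicate 1 or 4 and 2 without Grn replicate 2. Ldha, lactate dehydrogenase, stood at 1248, 1481, 1023, 966 and 918 CPM in Grn cells, against 713, 862, 893, 813 and 797 CPM in Rosa26 cells (0.47 ± 0.10, adjusted p = 0.000854), and Pgam1, a phosphoglycerate mutase, rose by 0.44. The groups did not overlap for either.

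Gdf15, a secreted stress cytokine and a target of p53, stood at 106, 233, 215, 157 and 134 CPM in Grn cells, against 50.2, 75.7, 70.2, 66.0 and 66.7 CPM in Rosa26 cells (1.36 ± 0.19, adjusted p = 1.24e-06), all Grn values above. It was 1 of 3 of 17 p53 targets that rose, with none lower (17.6% called, against 8.04% of all genes). The count was 1 without Rosa26 replicate 3 or 4. Of 23 genes of the integrated stress response, 2 rose (8.7%, near the 8.04% of all genes). They were Sars, a transfer RNA synthetase, and Slc7a11, a cystine transporter that lost the call in 6 of the 10 fits. Of 26 cell cycle genes 3 rose (11.5%, near the 8.04% of all genes). They were Rrm1, Ccnb1 and Cdk1, all of DNA replication or mitosis, and the count was 1, Rrm1, without Rosa26 replicate 1. Cdk1 lost the call in 8 of the 10 fits that left out 1 library, all but those without Rosa26 replicate 2 or Grn replicate 5. None of 13 mitochondrially encoded messages and none of 28 respiratory chain genes was called.

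**Figure D4:**
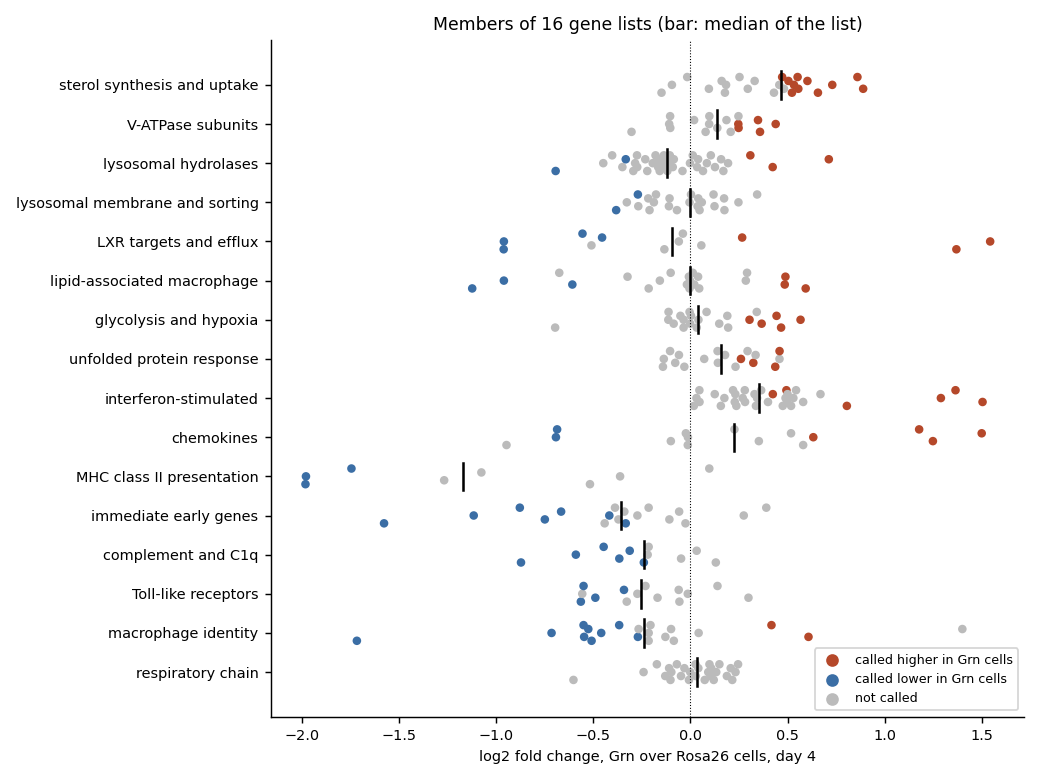
Log2 fold change of Grn over Rosa26 cells on day 4 (horizontal axis) for every tested member of 16 gene lists (rows), 1 point per gene, red where called higher in Grn cells, blue where called lower and grey where not called, with a bar at the median. The sterol list has its median at 0.46 and no blue point, and the MHC class II list its median at -1.17 and no red point.

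Apart from genes that rise with the neuron marker level, the largest rises with no overlap among genes of at least 10 CPM in 1 group, which leaves out the globins, were Saa3, Serpinb1a, Ccl7, Gdf15, Mx1, Cpeb1, Il12rb2, Tnfrsf26, Havcr2, Pira2, Cd33 and Hmgcs1, from 1.68 to 0.86. This ranking was added after the data were seen. Genes in it need not be apart from the brain messages. Of the 10 neuron markers called higher, 3 were not found to rise with the neuron marker level. Serpinb1a, an inhibitor of neutrophil proteases, stood at 9.85, 22.9, 18, 12.9 and 11.4 CPM in Grn cells, against 5.05, 5.08, 4.98, 6.27 and 4.98 CPM in Rosa26 cells (1.52 ± 0.23, adjusted p = 3.4e-06). Cpeb1, which governs the poly(A) tails of messages, averaged 14.8 ± 1.66 CPM in Grn cells and 6.73 ± 1.46 CPM in Rosa26 cells, and Il12rb2, a chain of the interleukin-12 receptor, 12.3 ± 2.34 CPM in Grn cells and 5.88 ± 1.10 CPM in Rosa26 cells. Havcr2, the inhibitory receptor TIM-3 (0.92 ± 0.21), and Cd33, an inhibitory receptor for sialic acid (0.87 ± 0.19), rose too, as did Pira2 (0.90 ± 0.12), an activating receptor whose count may be divided among near-identical family members. With the neuron marker level as a covariate Saa3 was at 1.25 with an adjusted p of 0.062.

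A control edited at another active gene was available in the 4 groups of day 4 edited at Atp6v1a, Npc1, Pik3c3 and Ctsd. These 4 groups were chosen with earlier results known, because they had few calls of their own. Likeness of their results to those with Rosa26 cells was therefore part of the choice and is not a separate check. Against their mean, 1143 of the 12008 genes (9.52%) were called for Grn cells, 695 higher (5.79%) and 448 lower (3.73%), while limma-trend called 528 higher and 668 lower. This comparison uses the same 5 Grn libraries as the one with Rosa26 cells, so the values are set side by side and are not independent. The count was 595 without Grn replicate 3 and 393 without the protocol term. Grn itself was at -2.18 ± 0.13. The 5 largest rises by rule included Nnat, Ttr, Sparcl1 and Ptgds, genes of brain or choroid plexus, and the 5 largest falls were Grn, Cx3cr1, Tmem176a, Kcnj2 (a potassium channel, -1.06, but -0.96 with an adjusted p of 0.159 against Rosa26 cells) and Itgax.

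Against the 4 other groups, 10 of 24 sterol genes were higher and none lower (median 0.29), against 11 and none (median 0.46) with Rosa26 cells as control. For macrophage identity the counts were 1 higher and 10 lower, and for complement 0 higher and 6 lower. V-ATPase subunits were higher in 5 of 17, although Atp6v1a, a subunit, was itself the target in 1 of the 4 groups. Of the 34 interferon-stimulated genes, 1 was higher and none lower, with a median of 0.08. Mx1 averaged 10.4 ± 4.67 CPM in Grn cells and between 5.87 CPM (Atp6v1a cells) and 9.11 CPM (Ctsd cells) in the others, a difference of 0.48 ± 0.22 (adjusted p = 0.163). Hmgcs1 averaged 169 ± 23.5 CPM in Grn cells and between 92.1 and 114 CPM in the others (0.68 ± 0.07), and Cx3cr1 20.8 ± 6.65 CPM in Grn cells and between 41.3 and 54.5 CPM in the others (-1.24 ± 0.21).

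**Figure D5:**
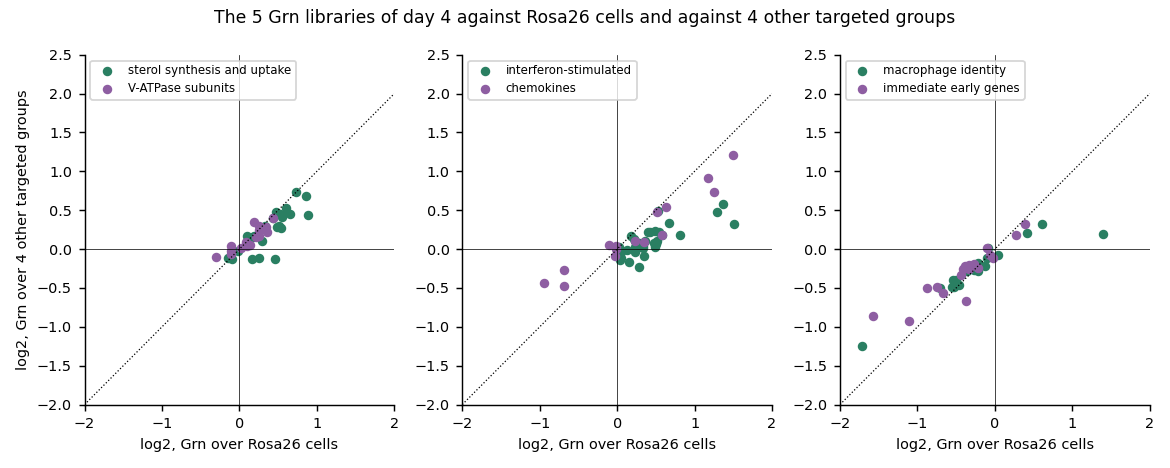
Log2 difference of Grn cells from the 4 other targeted groups of day 4 (vertical axis) against the log2 fold change from Rosa26 cells (horizontal axis), 1 point per gene of the lists named in each panel, with a dotted line of equal values. The 2 axes share the 5 Grn libraries. The sterol genes have a median of 0.29 against the other groups and 0.46 against Rosa26 cells. The interferon-stimulated genes have a median of 0.08 against the other groups and 0.35 against Rosa26 cells.

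The effect of Grn editing was compared with that on day 13 by a term for the difference between days. It passed for 1241 genes (10.3%), with 569 (4.74%) more positive and 672 (5.6%) more negative on day 13, while limma-trend called 764 more positive and 553 more negative. The day 13 groups include 2 Grn and 1 Rosa26 library of the Low-input protocol, and the fit takes 1 protocol difference for all groups. Without that term 777 genes passed. With the neuron marker level as a covariate, an alternative added after the data were seen, 229 passed (153 more positive, 76 more negative). On day 13 the neuron markers of Grn cells summed to 30.3 to 36.2 CPM with the Regular protocol and 25.3 to 28.9 CPM with Low-input. In Rosa26 cells they summed to 101 to 185 CPM with Regular and 30.3 CPM in the 1 Low-input library, a wider gap than in Grn cells. Among genes of at least 10 CPM in a group, the 5 largest differences upward were H2-M2, Dio2, Cdkn1c, Bex1 and Mfge8. Dio2, the deiodinase that activates thyroid hormone, averaged 15.1 ± 3.77 CPM in Grn cells and 12.8 ± 5.15 CPM in Rosa26 cells on day 4 (0.22, adjusted p = 0.59), and 343 ± 40.5 CPM in Grn cells and 19.2 ± 3.74 CPM in Rosa26 cells on day 13, a difference of effects of 3.97. Cdkn1c, a cyclin-dependent kinase inhibitor, and Mfge8, a bridge to dying cells, had day 4 effects of 0.19 and -0.17, neither called, and differences of 3.13 and 2.63. By the same rule, which leaves out the globins, the 5 largest downward were Sparc, Gpm6b, Ndrg2, Ptgds and Sparcl1, which were at or below -1.85 in Grn against Rosa26 cells on day 13, with the brain messages described above.

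The counts by list that follow are from the fit without the neuron marker level and were not made with it. With that level, the difference between days passed for 229 genes instead of 1241. By list, 16 of 17 V-ATPase subunits were called higher on day 13 (median 0.61), against 5 on day 4. On day 13, 12.5% of all tested genes were higher and 12.7% lower. For the V-ATPase subunits the difference between days itself passed for 10. For sterol genes 19 of 24 were higher on day 13 (median 0.82) and the difference passed for 9. For lipid-associated genes 13 rose and 3 fell on day 13, and it passed for 12 of 21. Gpnmb, at -0.01 on day 4, was at 1.13 ± 0.11 on day 13 (difference 1.14, adjusted p = 3.65e-08), and Ctsd, at 0.04 on day 4, was at 0.80 ± 0.07 (difference 0.76, adjusted p = 5.23e-08). Fabp5 was at 0.59 on day 4 and 2.26 on day 13 (difference 1.67, adjusted p = 4.92e-09). Interferon-stimulated genes were at a median of 0.35 on day 4 and -0.34 on day 13, with 1 higher and 7 lower on that day and 11 of 34 differing between days. For Grn, Hmgcs1, Csf1r and Cx3cr1, the difference between days did not pass, at -0.28 (adjusted p = 0.42), 0.06 (0.855), -0.12 (0.777) and -0.91 (0.0866).

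Trem2, a lipid-binding receptor of macrophages, was targeted in a further group of day 4, of 4 Regular and 1 Low-input library. Between Grn and Trem2 cells 1828 genes (15.2%) were called, 1089 higher in Grn cells (9.07%) and 739 lower (6.15%). The 5 largest differences with Grn cells higher were Il1rn (the interleukin-1 receptor antagonist), Serpinb9b, Fabp4, Angptl2 and Il7r, and with Grn cells lower F13a1, Dmpk, P2ry13, Ripor2 and Prss16. Il1rn averaged 263 ± 90.3 CPM in Grn cells and 25.7 ± 5.26 CPM in Trem2 cells (3.35 ± 0.20), and F13a1, a clotting factor subunit made by macrophages, 9.28 ± 3.42 CPM in Grn cells and 111 ± 23.2 CPM in Trem2 cells (-3.55 ± 0.20). Il1rn was at -2.87 in Trem2 against Rosa26 cells and at 0.48 (adjusted p = 0.0627) in Grn against Rosa26 cells. Sterol genes were higher in Grn than in Trem2 cells for 18 of 24, and lipid-associated genes for 16 of 21. Cx3cr1 averaged 20.8 ± 6.65 CPM in Grn cells and 17.6 ± 4.71 CPM in Trem2 cells, a difference of 0.29 ± 0.27 (adjusted p = 0.571).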

How the data were processed

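RNA of 69 mouse macrophage cultures was measured with QuantSeq 3' libraries carrying unique molecular identifiers, which per the labels' protocols were sequenced from 1 end for 75 bp. The authors deposited a table of estimated counts per gene, not whole in 31.2% of the values above 0, for which the submitters' processing notes name Salmon and GRCm39 (no Salmon version is given in the sources used here), and a table of log2 CPM whose prior count is 2 by comparison with the counts. Columns were matched to samples by library name.

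The estimated counts were rounded. All 69 libraries (47 Regular, 22 Low-input, 14 groups) entered 1 edgeR 4.0.16 quasi-likelihood fit (R 4.3.3) with TMM scaling, 1 mean per group and a protocol term. filterByExpr kept 12008 of 56980 genes. Tests were two-sided, with Benjamini-Hochberg adjustment over 12008 genes and a threshold of 0.05. SE is the absolute log2 change over the square root of F. Replicates are separate pools of mice. Same-numbered libraries were not treated as pairs, and every 2 libraries of a group differed by more than sampling noise (chi-square per degree of freedom 1.69 to 15.35). The fit was tested on simulated data. Alternatives included DESeq2 1.42.0, limma 3.58.1 on the log2 CPM and leaving out each library.

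Named genes were Grn, the 12 largest called rises and falls without overlap and at least 10 CPM in a group, members of 47 gene lists (12 of them cell type markers), and the 5 largest differences each way in the other comparisons. Results for some of these genes are not reported here. The comparison, the lists and their members were chosen with earlier results of these data known. Precision reflects counting error and the spread between libraries of the same group, estimated for each gene over all 69 libraries. It is therefore not the spread of the 5 Grn and 5 Rosa26 libraries alone. With only the libraries of these groups in the fit, 732 genes were called instead of 966.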

Additional observations from a re-analysis of the deposited data

Results flagged for a closer look

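Levels of 138 named genes were examined in the 5 Grn and the 5 Rosa26 libraries of day 4 for a library far from the other 4. Of 276 sets of 5 values, 18 held one, and chance flags about 1 in 20. Among Grn libraries, Saa3 was at 32.3 CPM in replicate 5 (others 5.69 to 12.3), Nr4a1 at 5.45 CPM in replicate 4 (others 2.98 to 3.55), Mrc1 at 1040 CPM in replicate 1 (others 1370 to 1484), Ccr2 at 30.0 CPM in replicate 1 (others 14.6 to 17.4) and Junb at 161 CPM in replicate 5 (others 138 to 144). Fabp5 was at 553 CPM in replicate 1 (others 385 to 434), Il1rn at 419 CPM in replicate 2 (others 185 to 250), F13a1 at 15.3 CPM in replicate 4 (others 6.51 to 8.50) and Hbb-bt at 4.70 CPM in replicate 5 (others 1.13 to 2.08). Among Rosa26 libraries, replicate 1 stood apart for Fbxl16 (6.24 CPM, others 1.34 to 2.26), Scd2 (18.4 CPM, others 10.8 to 12.9), Atp6v1e1 (268 CPM, others 245 to 251), Bex1 (0.99 CPM, others 1.86 to 2.16), Angptl2 (28.2 CPM, others 43.5 to 47.8) and Ccnb1 (62.7 CPM, others 81.8 to 86.6). Plxdc2 (30.9 CPM, others 22.2 to 24.5) and Serpinb1a (6.27 CPM, others 4.98 to 5.08) were apart in Rosa26 replicate 4, and Msmo1 (107 CPM, others 129 to 135) in Rosa26 replicate 5.

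For 54 named genes the difference of Grn from Rosa26 cells, called the effect here, changed between day 4 and day 13. The interaction term of edgeR's quasi-likelihood fit gave them adjusted p-values from 3.52e-18 to 0.0407. Over all tested genes this term passed for 1241, but for 229 with the neuron marker level as a covariate. Differences are given as the day 13 effect minus the day 4 effect, on the log2 scale. Brain genes were higher in Grn than in Rosa26 cells on day 4 and lower on day 13, with differences of -4.23 for Gpm6b, -4.09 for Ndrg2, -3.87 for Sparcl1, -3.82 for Gpm6a, -3.81 for Fbxl16, -3.72 for Nrgn, -3.71 for Snap25, -3.46 for Celf4, -3.45 for Kif5a, -2.90 for Mobp, -3.05 for Ttr, -3.61 for Nnat and -3.88 for Ptgds. The effect was also more negative on day 13 for the globins Hba-a2 (-5.85), Hbb-bs (-5.34) and Hbb-bt (-5.04), and for Sparc (-5.24), which was not called on day 4 (adjusted p = 0.0501), Scd1 (-3.12), Scd2 (-1.85) and Mgl2 (-3.10). Saa3 (-2.10), Mx1 (-1.96), Havcr2 (-1.15), Serpinb9b (-1.10), Cd33 (-1.09), Mrc1 (-0.65), Ripor2 (-2.14), F13a1 (-2.30) and Ctsc (-0.85) also had a more negative effect on day 13.

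The effect was more positive on day 13 for the sterol genes Cyp51 (0.95), Sc5d (0.81), Fdps (0.75), Msmo1 (0.67) and Sqle (0.58). Among lysosomal genes it was so for Gla (0.76), Ctsd (0.76), Atp6v1c1 (0.73), Cd68 (0.52), Psap (0.46), Atp6v1h (0.44) and Atp6v1g1 (0.44). Among lipid-associated and surface genes it was so for Fabp4 (2.35), Fabp5 (1.67), Gpnmb (1.14), Clec7a (1.09), Spp1 (0.89), Apoe (0.73), Tmem176a (0.59) and Sirpa (0.48). The remaining differences were H2-M2 (4.13), Dio2 (3.97), Cdkn1c (3.13), Bex1 (2.68) and Mfge8 (2.63). Clec7a, Cd68 and H2-M2 were called lower in Grn cells on day 4 and higher on day 13, but lost the day 4 call in 3, 5 and 7 of the 10 fits that left out 1 library.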

How the results depend on the processing

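The fall of the Grn message kept its direction and call under every alternative run, with -2.41 to -2.18 when 1 library was left out. The 966 calls between Grn and Rosa26 cells became 300 without the protocol term (137 higher, 163 lower), although all 10 libraries are Regular, 799 without a filter, 732 with only the groups compared, 1017 with DESeq2 and 1441 with the brain marker level in the fit, which shared 612 of the 966. They were 615 to 1156 with 1 library left out. Against the 4 other groups the 1143 calls became 393 without the protocol term and 672 with the neuron marker level as a covariate (an alternative added after the data were seen), and 595 to 1187 with 1 library left out. The difference between days (1241) became 777 without the protocol term, 733 with the brain and 229 with the neuron marker level, and 963 to 1523 with 1 library left out. Calls against Trem2 cells (1828) stayed within 1.5 times, at 1369 to 1830 with 1 library left out. The causes were not tested. With the neuron marker level, the changes of Ptgds (-0.77), Mobp (-0.26) and Nnat (-0.089), and with the brain marker level those of Ptgds (-0.69) and Mobp (-0.13), turned negative and were not called. The 137 named genes other than Grn include some, such as Psap, Ctsd and Gpnmb, that were not called and had no call to lose. Of the 137, 44 lost the call without the protocol term, 30 with the neuron marker level and 16 without a filter. In some fit with 1 library left out, 32 lost it. Same-numbered libraries deviated together only in part (correlations -0.06 to 0.22, over 0.1 in 2 of 5 pairs, best with their own number in 2 of 5). With a replicate block, 1317 genes were called against Rosa26 cells, the 966 among them, 1486 against the 4 other groups, 1679 between days and 2151 against Trem2 cells. Depth of 2358167 to 3698236 counts in Grn cells limits genes of a few CPM, such as the MHC class II and globin genes.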
